A study of Mus musculus with 6 samples.

Results

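The genes followed here are 38 named genes of the MYC network and of ribosome biogenesis, out of 24312 rows in the authors' deposited table. They were chosen by symbol and not by their values, and all 38 were among the 11079 genes that the authors tested. The series measured RNA from myeloid-derived suppressor cells (MDSCs), immature cells of the granulocyte and monocyte lineages with the capacity to dampen T cell responses. Per the labels, marrow was flushed from femurs and cultured for 7 days with the cytokines GM-CSF and IL-6 at 40 ng/mL each. The Pim1 knockout group was 3 libraries from Pim1-/- mice and the wild-type group 3 libraries from C57BL/6 mice. All 6 libraries carry the strain label C57BL/6 and the cell label CD11b+ Gr1+. The sources used here do not give the construction of the allele, the age of the mice or any pooling of animals, nor do they say that the 3 libraries of a genotype came from separate mice. The question is what differs between MDSCs without and with Pim1, a serine/threonine kinase induced by cytokines.

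MYC is a transcription factor that binds DNA as a pair with MAX and raises transcription of genes for growth, among them those that build ribosomes. MXD proteins take the place of MYC beside MAX and repress many of the same sites. Ribosomes are made in the nucleolus, where RNA polymerase I copies ribosomal DNA, small nucleolar RNPs (snoRNPs) guide chemical marks on the precursor RNA, and assembly factors fold and cut it into the small and large subunits. Pim1 is a classic partner of Myc in mouse lymphoma.

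The authors' deposited table pools the 3 libraries of a genotype into 1 value per gene, read here as FPKM, a fragment count scaled for transcript length and library depth. No spread between libraries can therefore stand beside a value, and depth is unknown. Each error printed beside a log2 fold change comes from dividing the fold change by its test statistic in the deposited table. A gene is called where the deposited Benjamini-Hochberg adjusted p is under 0.05, and "higher" and "lower" always refer to Pim1 knockout relative to wild type.

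The labels were checked first. In the authors' deposited table Pim1 itself was at 22.7 FPKM in Pim1 knockout and 90.2 in wild type, and it was called lower. Itgam, which encodes CD11b, was at 151.8 and 138.8 FPKM and Ly6c2, part of the Gr1 antigen, at 997.1 and 392.4 FPKM in Pim1 knockout and wild type of that deposited table. RNA of the Y-linked genes Ddx3y (0.0103 FPKM in Pim1 knockout, 2.56 in wild type) and Eif2s3y (0.0191 and 6.79 FPKM in the same order) was almost confined to wild type in the authors' deposited table, although neither was called. Xist, expressed from the inactive X of females, was at 7.21 FPKM in Pim1 knockout and 5.21 in wild type of the authors' deposited table (adjusted p = 0.0262), so RNA of both kinds was present in the wild-type pool. A difference between the pools in the sex of the mice cannot be told apart from genotype. Markers of mature neutrophils summed to 13971 FPKM in Pim1 knockout and 7463 in wild type over 10 genes of the authors' deposited table. Of the 10, 5 were called higher, whereas 6.79% of all tested genes were called higher and 6.73% lower. The difference in that sum came from S100a8 and S100a9, since the other 8 summed to 5685 FPKM in Pim1 knockout and 5785 in wild type. Wfdc21 alone held 4771 and 4990 FPKM of these sums. Il1r2 (91.6 FPKM in Pim1 knockout and 20.5 in wild type), Mmp9 (21.0 and 10.4) and Csf3r (8.03 and 5.26) were also called higher. Of the 10 markers 0 were called lower, and 2 had a fold change below 0. Granulocyte precursor markers summed to 1082 FPKM in Pim1 knockout and 874.1 in wild type of the authors' deposited table, and 8 of 12 were called higher. Without Lcn2 the other 11 summed to 831.9 FPKM in Pim1 knockout and 822.5 in wild type. Of that sum Chil3 alone held 676.3 FPKM in Pim1 knockout and 732.9 in wild type. The median log2 fold change of the 12 genes was 1.55, with 11 of them above 0. Monocyte markers were mixed, with 4 of 10 called higher and 2 lower in the authors' deposited table and a median log2 fold change of 0.08. Their sum was 1752 FPKM in Pim1 knockout and 1345 in wild type with Ly6c2, and 754.9 and 952.6 FPKM in the same order without it. Macrophage markers summed to 5278 FPKM in Pim1 knockout and 4638 in wild type of the authors' deposited table, with 0 of 10 called higher and 1 lower. Dendritic cell markers summed to 2447 FPKM in Pim1 knockout and 3213 in wild type of the authors' deposited table, with 1 of 6 tested called higher and 2 lower. All 10 markers of T, B and NK cells lay under 1 FPKM in both groups and 3 of them were at 0 in both. Under 1 FPKM in both groups were also 6 of 7 erythroid and platelet markers, 7 of 8 mast cell and basophil markers, 4 of 6 eosinophil markers and 6 of the 10 dendritic cell markers. The platelet marker Pf4 was the exception in its list, at 4234 FPKM in Pim1 knockout and 4360 in wild type, and was not called. Kit, the mast cell exception, was called higher (4.73 and 3.25 FPKM in the same order). The eosinophil markers Siglecf (4.64 and 7.68 FPKM) and Ear1 (0 and 1.15 FPKM) were called lower. Gata2, a mast cell and basophil marker under 1 FPKM, was also called lower. The part of these differences in the results below was not tested, and in bulk RNA more cells of a type and more RNA per cell cannot be told apart.

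Most MYC and ribosome biogenesis genes were not called between the genotypes. Of 38 genes, 5 were called higher and 1 lower in the authors' deposited table, which is 15.8%, against 13.5% of all tested genes. In the higher direction 6.79% of all tested genes were called, and in the lower direction 6.73%. The called share was thus near that of all tested genes. The genes that rose were the MYC antagonist Mxd1, the snoRNP chaperone Nolc1, the U3 snoRNP protein Rrp9, the small subunit factor Heatr1 and the large subunit factor Ppan, and the gene that fell was the nucleolar chaperone Npm1. No gene of the 38 changed as much as 2-fold: log2 fold changes ran from -0.42 for Npm1 to 0.66 for Mxd1. Small positive fold changes were common. A fold change above 0 was found for 27 of 38 genes, 71.1%, against 52.1% of tested genes. The count was 25 to 31 under 3 scalings, and a pseudocount cannot change it. In lists described below, the share above 0 was 64.4% of 132 other ribosome biogenesis genes and 66.7% of 27 other MYC target genes. It was 83.3% of 12 genes of MYC turnover and cofactors and 73.3% of 15 markers of proliferating cells. In the other MYC, MAX and MLX family it was 28.6% of 7 genes. The median log2 fold change of the 38 genes was 0.15, against 0.01 over all tested genes. It was 0.06 with a pseudocount of 5, and 0.09 over the 27 genes whose locus overlaps no other row, of which 17 (63.0%) were above 0. Of the 11 genes with an overlapping locus, 10 were above 0. The median absolute log2 fold change was 0.20 over the 38 genes and 0.19 over all tested genes.

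The number of calls changed with the reading of the statistic. A deposited p-value matches a normal deviate 1.74 times as large as its test statistic, so the errors printed here are wider than those behind the calls. Read as a normal deviate and adjusted by Benjamini-Hochberg, the deposited statistic called 0 of the 38 genes, against 3.31% of all tested genes (1.85% higher and 1.47% lower). At an unadjusted p under 0.05 that reading gave 3 of 38 (Mxd1, Rrp9 and Heatr1), against 9.05% of all tested genes. The deposited p-values themselves were under 0.05, unadjusted, for 11 of the 38 genes, against 24.1% of all tested genes. With the deposited adjusted p under 0.01, 3 of the 38 genes were called, all higher, against 8.78% of all tested genes (4.65% higher and 4.13% lower).

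**Figure D1:**
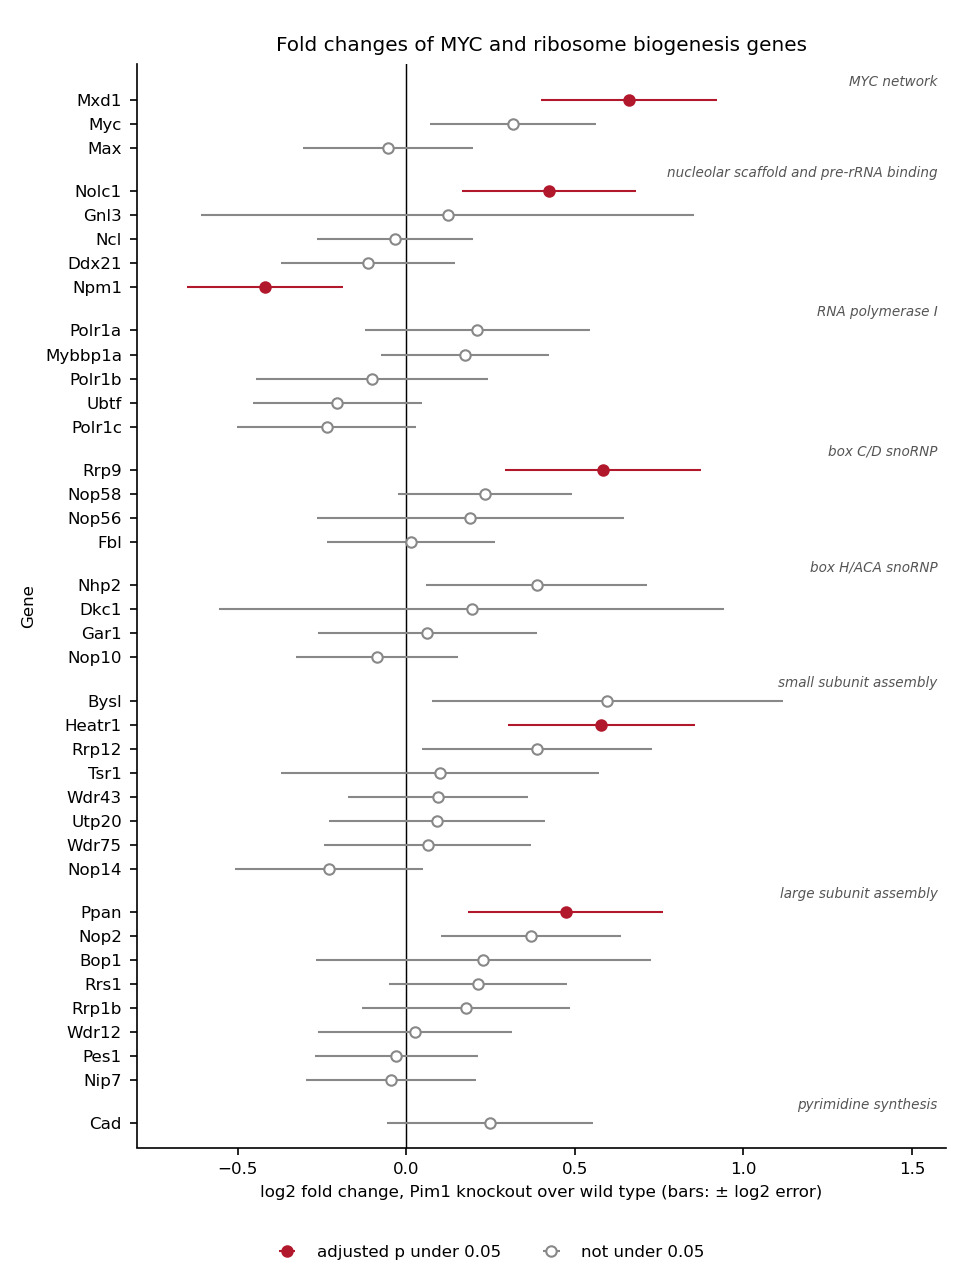
Log2 fold change of each of the 38 genes, Pim1 knockout over wild type, grouped by role. Bars are the log2 error from the deposited statistic, filled red points have an adjusted p under 0.05 in the authors' deposited table and open grey points do not. The 6 called genes are Mxd1, Nolc1, Rrp9, Heatr1 and Ppan to the right of 0 and Npm1 to the left, and the widest bars belong to Dkc1, Gnl3 and Bysl.

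In the MYC network, the repressor gene Mxd1 was called and Myc and Max were not. That is 1 of 3 genes, against 13.5% of all tested genes. Mxd1, which competes with MYC for MAX and is known to accompany myeloid differentiation, rose to 9.88 FPKM in Pim1 knockout, against 6.24 in wild type (the authors' deposited table). The rise was 1.58-fold (log2 error 0.26), and the adjusted p, 0.000831, is the floor of the authors' deposited table, shared by 667 genes. Myc was at 29.5 FPKM in Pim1 knockout and 23.7 in wild type of the authors' deposited table (log2 fold change 0.32, error 0.25, adjusted p = 0.130). Its 95% interval, taken as normal from that error, ran from -0.17 to 0.80, so neither equal levels nor a rise of over 1.5-fold lies outside it. Max, the shared partner, was at 24.97 FPKM in Pim1 knockout and 25.9 in wild type of the authors' deposited table (adjusted p = 0.888). In FPKM, which is per length, Mxd1 was the lowest of the 3 in both groups, and whether Myc and Max differ from each other was not tested. The ratio of Myc to Max was 1.18 in Pim1 knockout and 0.914 in wild type, and that of Mxd1 to Max 0.396 and 0.241, from the deposited values.

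The other MYC, MAX and MLX family genes included 1 call. Mxd4, which encodes another MAX-binding repressor, fell to 12.5 FPKM in Pim1 knockout, against 26.4 in wild type (the authors' deposited table; log2 fold change -1.08, error 0.30, adjusted p = 0.000831). It was the call among 7 tested genes of that list (14.3%), against 13.5% of all tested genes. Mxd4 stayed called when the authors' deposited statistic was taken as a normal deviate (Benjamini-Hochberg adjusted p = 0.0111). Mxd1 and Mxd4 therefore went in opposite directions. The other 6 had log2 fold changes between -0.19 and 0.16. Of these, Mxd3, named after its value was seen, had a log2 error of 1.34 and a locus overlapping that of Prelid1. Its fold change is therefore uncertain. Mycn, Mycl and Mlxipl were not tested, each under 0.2 FPKM in both groups of the deposited table. These and the genes further below were named by rule or, where said, after their values were seen.

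Npm1 was both the most abundant of the 38 genes and the gene that fell. Nucleophosmin is a nucleolar chaperone that takes part in ribosome export and histone handling. In the authors' deposited table Npm1 (chromosome 11, 33052497 to 33063206) was at 334.3 FPKM in Pim1 knockout and 447.2 in wild type, with a log2 fold change of -0.42 (error 0.23, adjusted p = 0.0136). It has processed pseudogenes, so its value is uncertain. Npm1 alone made up 28.9% of the summed FPKM of the 38 genes in Pim1 knockout and 37.5% in wild type. With it the sum was 1156 FPKM in Pim1 knockout and 1193 in wild type of the authors' deposited table. Without it the sum was 821.8 and 745.9 FPKM, so the summed level was lower with Npm1 and higher without it.

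The 5 nucleolar scaffold and precursor-binding genes, Npm1 among them, had 1 call higher and 1 lower. Of all tested genes 6.79% were called higher and 6.73% lower. Nolc1, which escorts snoRNPs in the nucleolus (chromosome 19, 46150336 to 46160033), rose to 12.04 FPKM in Pim1 knockout, against 8.98 in wild type (the authors' deposited table; log2 fold change 0.42, error 0.26, adjusted p = 0.0364). Nucleolin, Ncl, which binds precursor rRNA, was at 24.3 FPKM in Pim1 knockout and 24.9 in wild type of the authors' deposited table (adjusted p = 0.929). The helicase gene Ddx21 was at 7.43 FPKM in Pim1 knockout and 8.03 in wild type of the authors' deposited table (adjusted p = 0.731). The nucleostemin gene Gnl3 was at 16.2 and 14.9 FPKM in Pim1 knockout and wild type of the authors' deposited table (adjusted p = 0.922). Neither Ncl, Ddx21 nor Gnl3 was called.

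**Figure D2:**
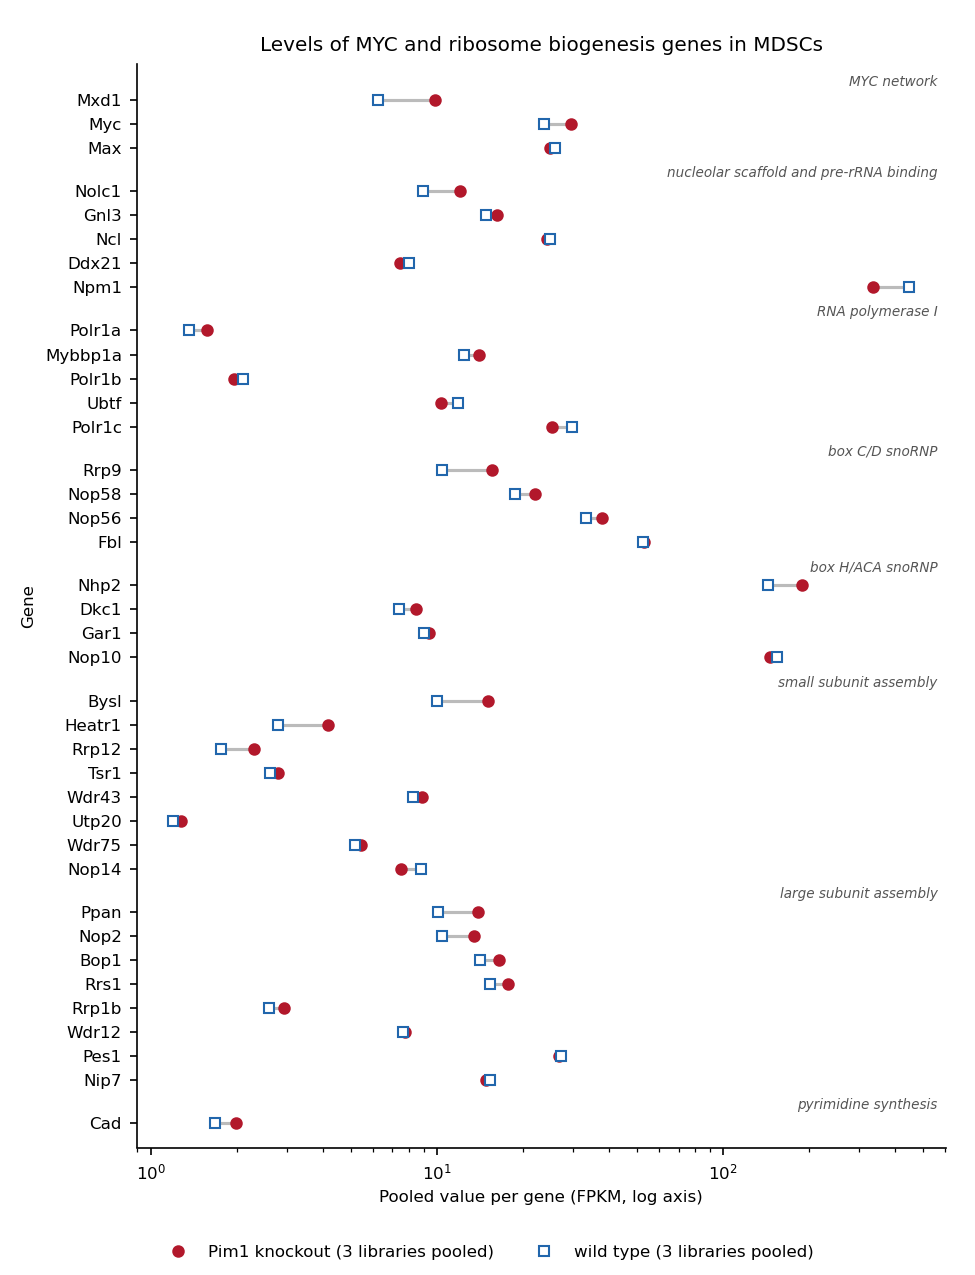
Pooled level of each of the 38 genes in FPKM on a log axis, with Pim1 knockout as filled red circles and wild type as open blue squares, 3 libraries pooled into each point and therefore no error bar. Npm1, Nhp2 and Nop10 lie above 100 FPKM in both groups, and Polr1a, Utp20 and Cad lie near the low end.

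The 5 RNA polymerase I genes had no call, against 13.5% of all tested genes. Polr1a and Polr1b encode the large catalytic subunits, Polr1c a subunit shared with RNA polymerase III, Ubtf the factor that binds ribosomal DNA and Mybbp1a a nucleolar protein linked to the polymerase. At an unadjusted deposited p under 0.05 the count was also 0 of 5, against 24.1% of all tested genes. Ubtf was at 10.3 FPKM in Pim1 knockout and 11.9 in wild type of the authors' deposited table (log2 fold change -0.20, error 0.25, adjusted p = 0.418). Polr1c was at 25.3 FPKM in Pim1 knockout and 29.8 in wild type of the authors' deposited table (log2 fold change -0.24, error 0.26, adjusted p = 0.356). Polr1a stood at 1.58 and 1.36 FPKM, Polr1b at 1.95 and 2.10 and Mybbp1a at 14.0 and 12.4 in Pim1 knockout and wild type of the authors' deposited table. The fold changes of these 5 thus lay on both sides of 0 and within their errors.

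Genes of the box C/D snoRNPs, which guide methylation of rRNA, all had fold changes above 0, against 52.1% of all tested genes. Of the 4, 1 was called, against 13.5% of all tested genes. Rrp9 (chromosome 9, 106379639 to 106387746), specific to the U3 snoRNP that starts small subunit assembly, rose to 15.6 FPKM in Pim1 knockout, against 10.4 in wild type (the authors' deposited table; log2 fold change 0.58, error 0.29, adjusted p = 0.00773). The core proteins Nop58 and Nop56 were at 22.0 and 37.9 FPKM in Pim1 knockout and 18.7 and 33.2 in wild type of the authors' deposited table. The methyltransferase gene Fbl, fibrillarin, was at 53.2 FPKM in Pim1 knockout and 52.7 in wild type of the authors' deposited table (log2 fold change 0.01, error 0.25, adjusted p = 0.978). Subunits of 1 particle thus had fold changes from 0.01 to 0.58 on the log2 scale, although their differences from each other were not tested.

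Box H/ACA snoRNPs guide pseudouridine marks. Of their 4 genes 0 were called, against 13.5% of all tested genes. At an unadjusted deposited p under 0.05 there was 1, against 24.1% of all tested genes. Nhp2 had the largest fold change of them, with 188.4 FPKM in Pim1 knockout and 144.1 in wild type of the authors' deposited table (log2 fold change 0.39, error 0.33, adjusted p = 0.177). Nop10, the other abundant subunit, was at 145.7 FPKM in Pim1 knockout and 154.8 in wild type of the authors' deposited table (adjusted p = 0.788). The enzyme gene Dkc1, dyskerin, stood at 8.48 and 7.41 FPKM and Gar1 at 9.42 and 9.03 in Pim1 knockout and wild type of the authors' deposited table. Dkc1 is X-linked, and its log2 error, 0.75, was the widest of the 38 genes.

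Small subunit assembly genes had 1 call among 8, against 13.5% of all tested genes. Of the 8 fold changes 7 were above 0, against 52.1% of all tested genes. Heatr1 (chromosome 13, 12487641 to 12531160), needed for RNA polymerase I transcription and early processing, rose to 4.17 FPKM in Pim1 knockout, against 2.79 in wild type (the authors' deposited table; log2 fold change 0.58, error 0.28, adjusted p = 0.00399). Its log2 fold change was 0.23 with a pseudocount of 5. Bysl, a late assembly factor, had a fold change as large but was not called, with 15.1 FPKM in Pim1 knockout and 10.0 in wild type of the authors' deposited table (log2 fold change 0.60, error 0.52, adjusted p = 0.197). Rrp12, known in yeast for export of subunits, was at 2.30 FPKM in Pim1 knockout and 1.76 in wild type of the authors' deposited table (adjusted p = 0.203). The processome proteins Wdr43, Wdr75 and Utp20 and the late factor Tsr1 had log2 fold changes between 0.06 and 0.10, none of them called. Nop14 was the gene below 0, at 7.49 FPKM in Pim1 knockout and 8.79 in wild type of the authors' deposited table (adjusted p = 0.415).

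Large subunit assembly genes likewise had 1 call among 8, against 13.5% of all tested genes. Ppan (chromosome 9, 20692618 to 20696623), related to a yeast factor for large subunit processing, rose to 14.0 FPKM in Pim1 knockout, against 10.1 in wild type (the authors' deposited table; log2 fold change 0.47, error 0.29, adjusted p = 0.0374). The rRNA methyltransferase gene Nop2 was the nearest to a call of the other 32 genes, at 13.5 FPKM in Pim1 knockout and 10.5 in wild type of the authors' deposited table (log2 fold change 0.37, error 0.27, adjusted p = 0.0900). Pes1, Bop1 and Wdr12 form the PeBoW complex and stood at 26.8, 16.5 and 7.76 FPKM in Pim1 knockout and 27.3, 14.1 and 7.62 in wild type of the authors' deposited table. None of these 3 was called, with log2 fold changes of -0.03, 0.23 and 0.03. Rrs1, Rrp1b and Nip7 were at 17.7, 2.92 and 14.9 FPKM in Pim1 knockout and 15.3, 2.58 and 15.4 in wild type of the authors' deposited table. Cad, the enzyme that opens pyrimidine synthesis and a textbook MYC target, was at 2.00 FPKM in Pim1 knockout and 1.68 in wild type of the authors' deposited table (log2 fold change 0.25, error 0.30, adjusted p = 0.413).

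For the 32 genes not called, adjusted p in the authors' deposited table ran from 0.0900 to 0.978, and 5 of them had an unadjusted p under 0.05. The 95% interval of the log2 fold change, taken as normal from the printed error, lay wholly between -1 and 1 for 26 of the 38 genes. It included 0 for 35, among them the called genes Npm1, Nolc1 and Ppan, as the printed errors are wider than those behind the calls. Levels spanned 1.28 to 334.3 FPKM in Pim1 knockout and 1.201 to 447.2 in wild type of the authors' deposited table, with medians of 13.8 and 10.2. The median over all tested genes was 7.85 FPKM in Pim1 knockout and 7.68 in wild type.

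Precision was uneven among the 38 genes, and the position of the locus went with it. In 11 of them the locus given in the authors' deposited table overlaps that of another row, and in 27 it does not. All 6 calls were among the 27 (22.2%) and 0 among the 11, against 13.5% of all tested genes, and this split was not tested. The median log2 error was 0.45 in the 11 and 0.26 in the 27. A log2 error over 0.4 was found for 6 genes, Dkc1, Gnl3, Bysl, Bop1, Tsr1 and Nop56, and each of these overlaps a neighbouring gene such as Mpp1 for Dkc1, Ccnd3 for Bysl, Srr for Tsr1 or Idh3b for Nop56. Nop58 and Wdr43, whose overlapping rows are small nucleolar RNA genes (Snord11 and Snord70, Snord92 and Snord53), had log2 errors of 0.26 and 0.27. Overlap with a neighbour did not always go with a wide error. Nhp2, which overlaps Rmnd5b, and Wdr12, which overlaps Carf, had log2 errors of 0.33 and 0.29.

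**Figure D3:**
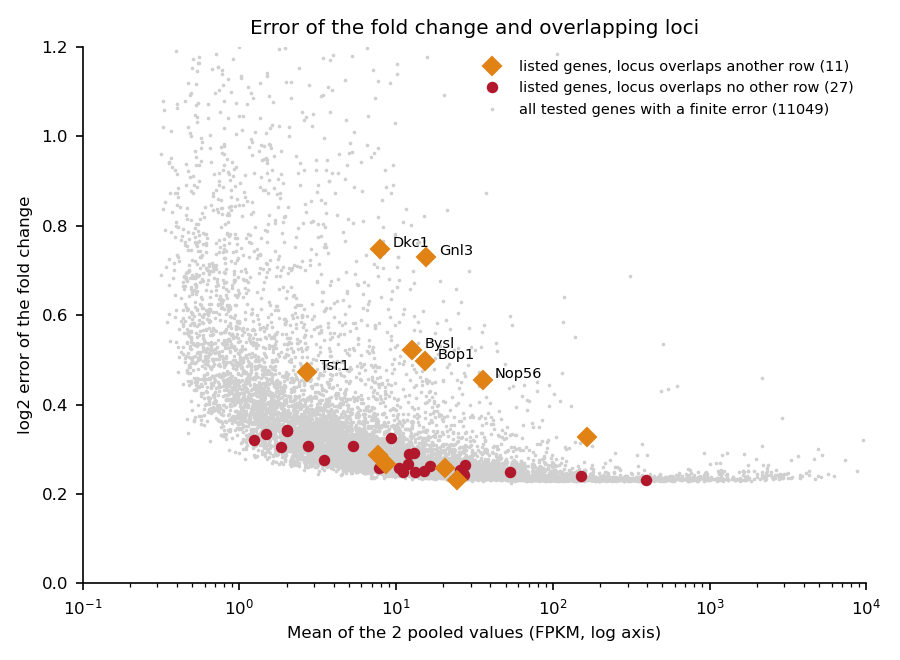
Log2 error of the fold change against the mean of both pooled values in FPKM (log axis). Orange diamonds are the 11 listed genes whose locus overlaps another row, red circles the 27 whose locus does not, and grey dots all tested genes with a finite error, of which those above 1.2 are not drawn. Dkc1, Gnl3, Bysl, Bop1, Tsr1 and Nop56 lie above 0.4, and all 27 red circles lie below it. The number of grey genes beyond the axis is 242.

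Few genes of the wider machinery of ribosome biogenesis were called. Of 132 other tested genes of RNA polymerase I, subunit assembly and rRNA trimming, 3 were called higher and 0 lower in the authors' deposited table, 2.27%, against 13.5% of all tested genes, a difference that was not tested. Their median log2 fold change was 0.06 and their median log2 error 0.27, against 0.29 for all tested genes. Of these lists, the small subunit processome had 0 calls among 45 genes. It had 4 genes at an unadjusted deposited p under 0.05, against 24.1% of all tested genes. With the statistic read as a normal deviate it had 0 calls, against 3.31% of all tested genes. Its most abundant gene, Fcf1, was at 128.6 FPKM in Pim1 knockout and 136.4 in wild type of the authors' deposited table (adjusted p = 0.807). Exosome and trimming genes also had 0 calls among 16. They had 1 at an unadjusted deposited p under 0.05 and 0 by the normal deviate, against the same shares of all tested genes. Exosc5 was the most abundant of these, at 45.5 FPKM in Pim1 knockout and 42.4 in wild type of the authors' deposited table (adjusted p = 0.771).

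The 3 calls were in 2 of the 4 lists. Polr2f, a subunit common to the nuclear RNA polymerases, rose to 187.7 FPKM in Pim1 knockout, against 131.6 in wild type (the authors' deposited table; log2 fold change 0.51, error 0.25, adjusted p = 0.00510), 1 of 16 other RNA polymerase I genes. Among 55 other large subunit genes the helicase gene Ddx24 rose to 39.2 FPKM in Pim1 knockout, against 27.9 in wild type (the authors' deposited table; adjusted p = 0.00722). Nol9, a kinase that acts on precursor rRNA, rose to 7.12 FPKM in Pim1 knockout, against 5.16 in wild type (the authors' deposited table; adjusted p = 0.0469). None of the 3 was called with the statistic read as a normal deviate.

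**Figure D4:**
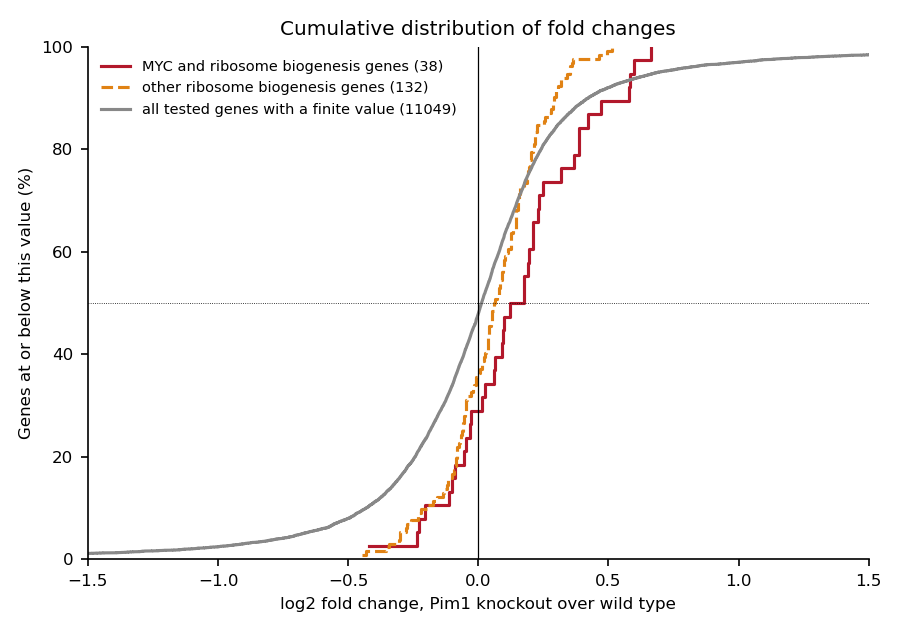
Cumulative share of genes (%) by log2 fold change, Pim1 knockout over wild type, for the 38 MYC and ribosome biogenesis genes (red), 132 other ribosome biogenesis genes (orange, dashed) and all tested genes with a finite value (grey). The x axis is limited to -1.5 to 1.5. The red and orange curves cross 50% at 0.15 and 0.06 and the grey curve at 0.01.

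Among 27 other MYC target genes, 3 were called higher and 1 lower, 14.8%, against 13.5% of all tested genes (6.79% higher and 6.73% lower), so the called share was near that of the table. The transferrin receptor gene Tfrc rose to 3.80 FPKM in Pim1 knockout, against 2.17 in wild type (the authors' deposited table; log2 fold change 0.81, error 0.30, adjusted p = 0.000831). Spermidine synthase, Srm, rose to 61.4 FPKM in Pim1 knockout, against 40.4 in wild type (the authors' deposited table; log2 fold change 0.60, error 0.25, adjusted p = 0.000831). Cyclin D2, Ccnd2, rose to 26.4 FPKM in Pim1 knockout, against 17.7 in wild type (the authors' deposited table; log2 fold change 0.57, error 0.24, adjusted p = 0.000831). Impdh2, an enzyme of guanine nucleotide synthesis named after its value was seen, fell to 44.3 FPKM in Pim1 knockout, against 62.1 in wild type (the authors' deposited table; adjusted p = 0.00223). None of these 4 was called with the statistic read as a normal deviate. Over these 27 genes the median log2 fold change came to 0.06. Of 12 genes of MYC turnover and cofactors, 0 were called, against 13.5% of all tested genes. By the normal deviate 0 were called, against 3.31%, and 4 had an unadjusted deposited p under 0.05, against 24.1%. The most abundant, the phosphatase subunit gene Ppp2ca, was at 42.3 FPKM in Pim1 knockout and 44.8 in wild type of the authors' deposited table (adjusted p = 0.806).

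Genes of the p53 pathway, which disturbed ribosome assembly is known to engage, had 3 calls higher and 1 lower among 9 tested, against 6.79% higher and 6.73% lower of all tested genes. The cell cycle inhibitor gene Cdkn1a rose to 392.2 FPKM in Pim1 knockout, against 198.3 in wild type (the authors' deposited table; log2 fold change 0.98, error 0.23, adjusted p = 0.000831). Cdkn1a stayed called with the statistic read as a normal deviate, and it was the 1 gene of the list that did. Its locus lies 0.39 Mb from that of Pim1 in the table's coordinates, so an effect of the targeted locus on its neighbour cannot be told apart from other effects of the genotype. Cyclin G1, Ccng1, rose to 59.5 FPKM in Pim1 knockout, against 44.3 in wild type (the authors' deposited table; adjusted p = 0.0168), as did Pmaip1 (6.98 and 4.79 FPKM, adjusted p = 0.0214), which was named after its value was seen. The ribosomal protein gene Rpl5, part of the 5S particle that binds MDM2, fell to 389.6 FPKM in Pim1 knockout, against 574.8 in wild type (the authors' deposited table; adjusted p = 0.000831). Its locus overlaps that of Fam69a, and ribosomal protein genes have pseudogenes, so its value is uncertain. Trp53 and Mdm2, named after their values were seen, were at 67.7 and 16.4 FPKM in Pim1 knockout and 64.6 and 15.5 in wild type of the authors' deposited table, and neither was called. The rest of the tested list, likewise named after their values were seen, was not called either. Mdm4 was at 5.11 FPKM in Pim1 knockout and 3.93 in wild type, Bbc3 at 4.29 and 4.67, and Rpl11 at 1997 and 2479. The 15 markers of proliferating cells had 0 calls in the same comparison, against 13.5% of all tested genes. Of them 4 had an unadjusted deposited p under 0.05, against 24.1%, and 0 were called by the normal deviate, against 3.31%. They summed to 663.9 FPKM in Pim1 knockout and 656.9 in wild type.

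**Figure D5:**
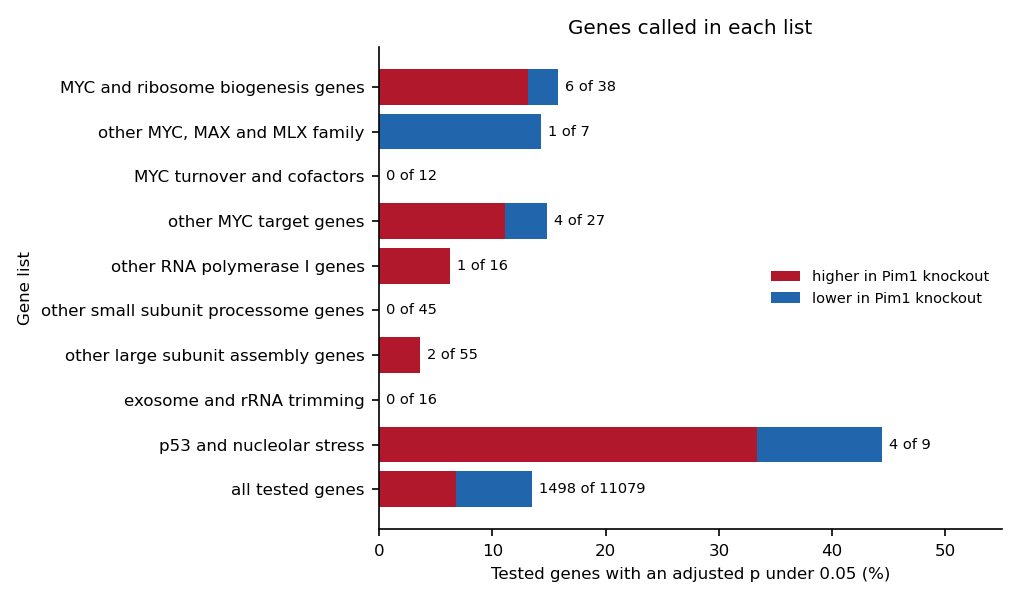
Share of tested genes (%) with an adjusted p under 0.05 in the authors' deposited table, higher (red) and lower (blue) in Pim1 knockout, for the 38 MYC and ribosome biogenesis genes, 8 other lists and all tested genes. Numbers beside the bars are genes called of genes tested, from 6 of 38 at the top to 1498 of 11079 at the bottom.

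Promoters were examined for the letters that MYC and MAX are known to bind. RefSeq promoter sequences (GRCm38.p6, 250 bases before to 50 after each start site) were matched by symbol for 32 of the 38 genes, with Myc, Npm1, Fbl, Bop1, Rrp12 and Rrs1 unmatched. The canonical E-box CACGTG, which reads the same on both strands, was found in 7 of the 32, 21.9% (exact 95% interval 9.28% to 40.0%), against 12.1% of 8447 tested genes and 8.09% of 27025 genes with a promoter. A gene with several promoters was counted once if any held the motif. The 7 genes are Nop2, Utp20, Pes1, Mybbp1a, Tsr1, Max and Wdr43. Of them 0 were called, against 12.3% of 1026 tested genes with the motif. So few genes cannot show a difference, and none was tested. Their E-boxes are shown because they are the matches to the MYC site, with CACGTG in capitals and up to 12 bases on either side, cut where the promoter window ends.
Nop2, chr6:125131811-125131840, plus strand: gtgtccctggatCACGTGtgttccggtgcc
Utp20, chr10:88826765-88826789, minus strand: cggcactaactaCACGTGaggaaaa
Pes1, chr11:3963965-3963994, plus strand: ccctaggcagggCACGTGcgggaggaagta
Mybbp1a, chr11:72441355-72441376, plus strand: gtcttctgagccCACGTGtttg
Tsr1, chr11:74898092-74898121, plus strand: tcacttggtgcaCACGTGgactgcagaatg
Max, chr12:76962234-76962263, minus strand: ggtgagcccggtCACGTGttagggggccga
Wdr43, chr17:71616220-71616249, plus strand: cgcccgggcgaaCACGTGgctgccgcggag
In Pes1 the first base of the E-box lies 2 bases after the start site and in Max 3 bases before it, and the farthest match, in Nop2, starts 60 bases before. The median log2 fold change of the 7 genes was 0.09.

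The promoters matched for 5 of the 6 called genes hold no CACGTG, a motif held by 12.1% of 8447 tested genes. That of Npm1 was not matched. A looser motif, CACGCG, which reads as CGCGTG when taken from the opposite strand, was found in 11 of 32 genes, 34.4%, against 20.3% of tested genes and 10.5% of all, with counts made once per gene. The motif CATGTG, whose opposite strand has the letters CACATG, was found in 7 of 32 genes, against 10.4% of tested genes and 15.9% of all. Matches on either strand and overlapping matches all counted. The 5 promoters of the genes that rose are shown with these motifs in capitals, so that they can be set beside the E-boxes above. Nolc1 and Ppan each hold CGCGTG, Rrp9 and Heatr1 each hold CATGTG, and Mxd1 holds none of the 3 motifs.
Mxd1, chr6:86669110-86669409, minus strand: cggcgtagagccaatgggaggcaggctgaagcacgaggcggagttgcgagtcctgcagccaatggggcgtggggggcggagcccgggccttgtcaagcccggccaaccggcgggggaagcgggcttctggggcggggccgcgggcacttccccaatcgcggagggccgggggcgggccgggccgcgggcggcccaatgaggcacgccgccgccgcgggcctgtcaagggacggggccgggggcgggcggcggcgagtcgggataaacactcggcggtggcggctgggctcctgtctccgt
Nolc1, chr19:46075597-46075896, plus strand: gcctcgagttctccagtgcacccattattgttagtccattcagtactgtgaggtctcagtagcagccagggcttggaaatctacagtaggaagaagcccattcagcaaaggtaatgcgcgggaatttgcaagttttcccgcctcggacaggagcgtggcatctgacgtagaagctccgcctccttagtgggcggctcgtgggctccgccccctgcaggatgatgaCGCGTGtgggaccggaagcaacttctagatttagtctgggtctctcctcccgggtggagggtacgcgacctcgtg
Rrp9, chr9:106477059-106477358, plus strand: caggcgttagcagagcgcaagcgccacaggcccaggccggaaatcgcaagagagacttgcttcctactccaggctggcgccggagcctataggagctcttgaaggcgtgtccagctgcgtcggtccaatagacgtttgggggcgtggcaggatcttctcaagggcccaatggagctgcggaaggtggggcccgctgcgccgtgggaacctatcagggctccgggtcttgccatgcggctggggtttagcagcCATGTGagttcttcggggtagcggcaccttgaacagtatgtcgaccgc
Heatr1, chr13:12395125-12395424, plus strand: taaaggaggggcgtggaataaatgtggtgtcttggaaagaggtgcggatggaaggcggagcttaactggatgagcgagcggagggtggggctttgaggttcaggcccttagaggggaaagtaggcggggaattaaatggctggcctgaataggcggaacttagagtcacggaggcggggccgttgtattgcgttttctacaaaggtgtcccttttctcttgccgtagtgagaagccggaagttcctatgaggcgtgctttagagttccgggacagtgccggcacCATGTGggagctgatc
Ppan, chr9:20887925-20888224, plus strand: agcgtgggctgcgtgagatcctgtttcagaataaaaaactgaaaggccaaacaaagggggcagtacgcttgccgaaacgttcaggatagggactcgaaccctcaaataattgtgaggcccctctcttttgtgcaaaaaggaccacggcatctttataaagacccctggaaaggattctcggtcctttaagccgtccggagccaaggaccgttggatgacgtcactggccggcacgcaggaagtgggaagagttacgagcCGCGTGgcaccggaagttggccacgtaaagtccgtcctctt
The CATGTG of Rrp9 starts 2 bases after the start site and that of Heatr1 34 bases after, whereas the CGCGTG of Ppan starts 9 bases after and that of Nolc1 25 bases before. These matches are descriptions of sequence, and no binding was measured.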

How the data were processed

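RNA libraries followed a Smart-seq2 protocol, per the labels. The analysis started from the authors' deposited table of 1 comparison, which holds 1 pooled value per gene and genotype, a test statistic, a p-value and a q-value. The deposited values were read as FPKM from the column layout, since the header names no unit. The deposited test statistic was used as a score per gene. The sources used here do not give the aligner, counter or scaling. Adjusting the authors' p-values by Benjamini-Hochberg over the 11079 tested rows gave their q-values to within 5.28e-07. The submitters' processing notes name mm10, but the table's locus overlapped the RefSeq GRCm38.p6 gene for 1 of 38 genes, so no build is given for the table's coordinates.

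Fold changes were computed from both pooled values. Benjamini-Hochberg adjustment of the normal-deviate reading covered 11049 genes with a finite statistic. Other settings tried were that reading, a q-value under 0.01, a mean of at least 1 or 10, pseudocounts of 0.1, 1 and 5, and 3 scalings; leaving out libraries needs library values, which were not used here. Named genes were the 38, Pim1, up to 3 called genes with the smallest adjusted p of each pathway list (or its most abundant gene, with no call) and marker lists, given here as sums. The genes, lists and tests were chosen with earlier results of these data known. Adjustment and motif search were tested on simulated data. Python 3.11.15, pandas 2.3.3, numpy 2.4.6, scipy 1.17.1 and matplotlib 3.10.9 were used.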

Additional observations from a re-analysis of the deposited data

How the results depend on the processing

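Of the 38 genes, 6 were called in the authors' deposited table, 0 where its statistic was taken as a normal deviate, and 3 (Mxd1, Rrp9 and Heatr1) at an adjusted p under 0.01, where 8.78% of all tested genes were called. Over all tested genes the count was 1498, against 366 with the normal deviate, 973 at an adjusted p under 0.01 and 715 of 4890 with a mean of at least 10 (14.6%). That mean left 22 of the 38 genes, 4 of them called. The count stayed at 6 with a mean of at least 1. Leaving out overlapping loci or the region up to 10 Mb from Pim1 was chosen after seeing the data. None of the genes left out there was called, so removing them could not lower the count of 6. The marker sums without single genes were likewise chosen after seeing the data. The median log2 fold change was between 0.06 and 0.21 under 3 pseudocounts and 3 scalings. The 6 called genes kept their direction under the 3 scalings, and a pseudocount cannot change a direction. Scaling by the median or the sum of the table shifts all genes by the same amount. No paired analysis was possible because the table pools the 3 libraries of a genotype, and for the same reason no library could be left out. Depth per library is unknown, so no limit from counting error is given.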

Other observations

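The E-box CACGTG was also set against the calls of the whole table. Of 1026 tested genes with it in a RefSeq promoter, the authors' deposited table had 48 higher and 78 lower in Pim1 knockout (12.3%), against 512 higher and 483 lower of 7421 genes without it (13.4%). The median log2 fold change was 0.01 with the E-box and 0.02 without it. For CATGTG the called share was 16.4% of 882 genes with the motif and 12.9% of 7565 without it. For CACGCG it was 11.5% of 1712 genes with the motif and 13.7% of 6735 without it. None of these differences was tested.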
